A study of Homo sapiens with 7 samples.

Results

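Ubiquitin-specific proteases (USP) and ubiquitin-conjugating enzymes (UBE2) were described in the gene expression table of a CNBP knockdown study. The members are the genes whose symbol in the table follows the USP or UBE2 pattern and whose locus lies on a numbered chromosome or on X, which gave 85 of 63655 genes, 51 USP and 34 UBE2. The cells were HEK293, a cell line from human embryonic kidney, with a FLAG-HA tagged copy of CNBP, whose zinc fingers bind G-rich RNA and DNA. The labels name 3 control knockdown and 4 CNBP knockdown samples, all of that tagged line. The authors' table does not keep these samples apart: it holds 2 columns of FPKM (fragments counted per kilobase of transcript relative to all mapped fragments), named OE and siRNA, with 1 value per gene in each. The name siRNA and the study's design point to CNBP knockdown, and the labels do not explain OE. If OE stands for overexpression of CNBP, each ratio below combines overexpression with knockdown. No value has an SD or an n, and the depth of each sample is unknown, so replicate spread is reflected just in the p-values and q-values of the authors' deposited table. Whether cultures were separate is not stated in the labels, so that spread may be technical.

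CNBP itself was 12.7-fold lower in siRNA (579.8 against 45.5 FPKM, q = 0.00791 in the authors' deposited table). Of the 8 markers listed for HEK293 cells, 7 were tested and ran from LHX1 (1.37 and 1.99 FPKM) to VIM (398 and 413 FPKM), while NEFM (0.262 and 0.277 FPKM) was not tested. NEFL, a neurofilament gene, was called and rose from 35.9 to 64.7 FPKM (q = 0.00791 in the authors' deposited table). The hepatocyte markers ALB, APOA1 and TTR and the blood marker PTPRC were all under 0.2 FPKM in both conditions. The blood markers CD14 (0.731 and 0.489 FPKM) and LYZ (0.561 and 0.427 FPKM) were higher than that, CD14 being tested and not called and LYZ not tested. The fibroblast markers COL1A1 (6.60 and 4.79 FPKM) and DCN (4.24 and 2.94 FPKM) were detected and not called. A further fibroblast marker, LUM, was lower (0.798 and 0.729 FPKM), and it was tested and not called.

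Ubiquitin is a small protein that cells attach to other proteins. An activating enzyme (E1) charges it, a conjugating enzyme (E2, most of them named UBE2) carries it as a thioester, and a ligase (E3) directs it onto a substrate. Chains of ubiquitin mark proteins for the proteasome or for roles in DNA repair and signalling, depending on how they are linked. Deubiquitinases take ubiquitin off again, and the USP family is the most numerous group of them in human cells. A few UBE2 enzymes carry SUMO, NEDD8 or ISG15, relatives of ubiquitin with substrates of their own.

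Both families were broadly expressed, and the UBE2 genes stood at the higher level. The authors' status column marked 48 of the 51 USP genes and 31 of the 34 UBE2 genes as tested. Among these, the median FPKM over both conditions was 23.4 for USP and 49.0 for UBE2, against 13.5 for all 13923 tested genes matched to a coding transcript. USP22, a histone deubiquitinase of the SAGA coactivator complex, had the highest mean of the USP genes, at 131.1 and 130.9 FPKM in OE and siRNA. UBE2S, which extends chains on substrates of the anaphase-promoting complex, was the most abundant UBE2 gene at 194 and 158 FPKM. Its locus in the table is pooled with that of RPL28, so this value is uncertain. The lowest tested members were USP51 at 0.642 and 0.659 FPKM and USP6 at 0.570 and 0.757 FPKM. The plot of levels by member shows that the USP genes spanned a wider range than the UBE2 genes.

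The 6 members that were not tested were near 0 in both conditions. USP26 and USP29 were at 0.221 and 0.173 FPKM and at 0.325 and 0.117 FPKM. USP41, a near copy of USP18, was at 0.0780 and 0.0865 FPKM. UBE2L4 was at 0.105 and 0.147 FPKM, UBE2U was listed at 0 in OE and at 0.0161 FPKM in siRNA, and UBE2L2 was listed at 0 in both.

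**Figure D1:**
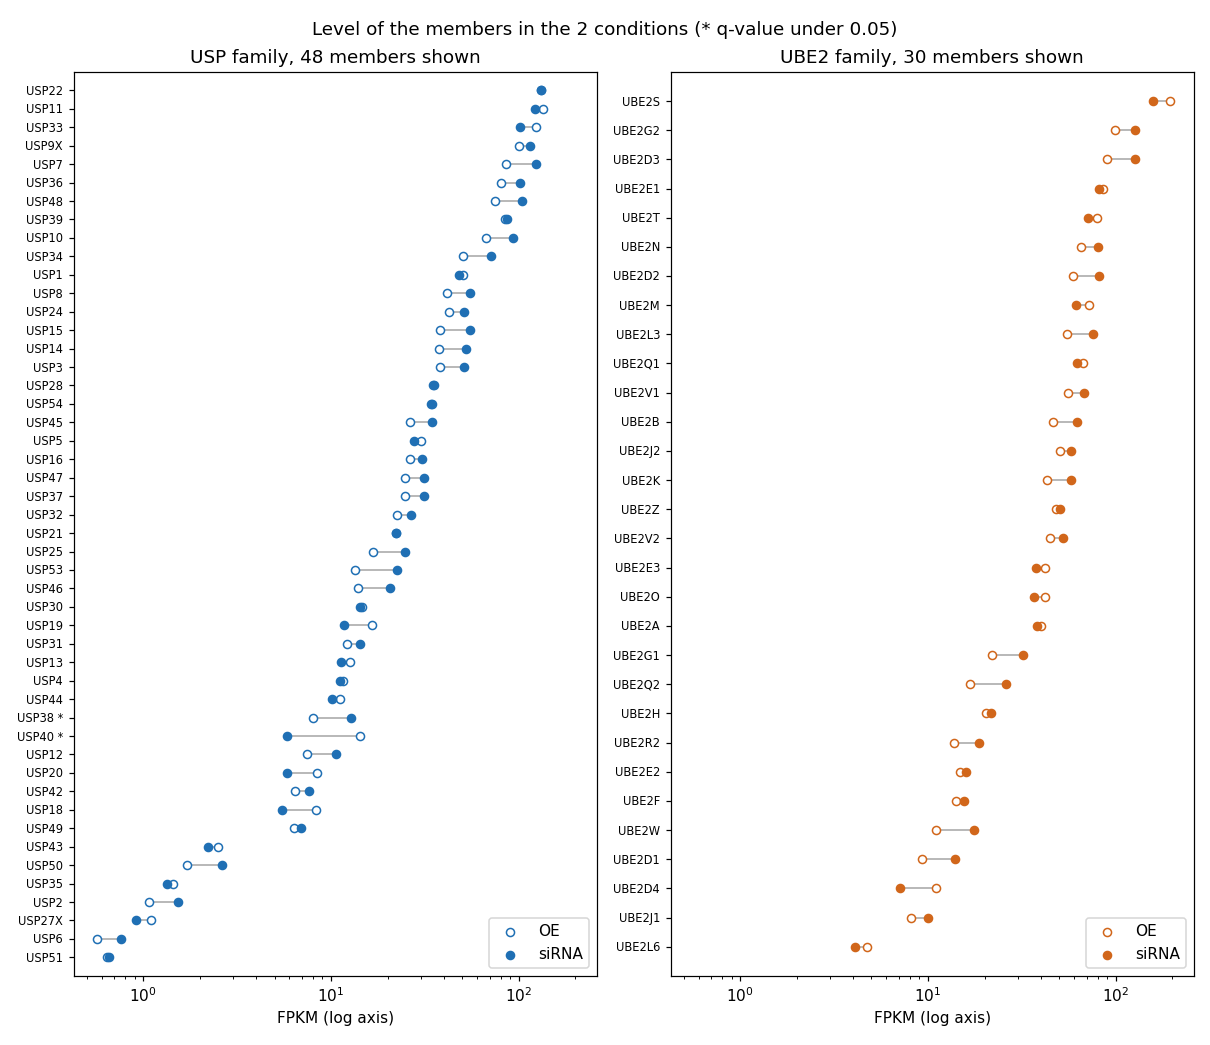
FPKM of the members on a log axis, with OE as open and siRNA as filled points, the 48 USP genes on the left and 30 of the 31 tested UBE2 genes on the right, ordered by mean level. USP40 and USP38, marked with a star, are the members with a q-value under 0.05: USP40 goes from 14.2 down to 5.81 FPKM and USP38 from 7.98 up to 12.7 FPKM.

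Among the 79 tested members, 1 gene fell and 1 rose at a q-value under 0.05 in the authors' deposited table, both of them USP genes. This is 2 of 48 USP genes and 0 of 31 UBE2 genes, where 1.35% of all 24822 tested genes were called, 0.572% higher and 0.782% lower. The 2 counts are too small for a share to be read from them. USP40 (ENSG00000085982, chromosome 2, 234384166 to 234475428, hg19) was at 14.2 (OE) and 5.81 FPKM (siRNA). It fell 2.44-fold, a change of -1.16 on the log2(FPKM + 1) scale (q = 0.0292 in the authors' deposited table). This was the largest difference of any tested member. USP38 (ENSG00000170185, chromosome 4, 144106070 to 144144983, hg19), a deubiquitinase reported to act in innate immune signalling and on chromatin, was at 7.98 (OE) and 12.7 FPKM (siRNA). It rose 1.60-fold, a change of 0.61 (q = 0.0292 in the authors' deposited table). Neither gene shares any run of 50 bases of its coding transcript with another annotated gene. The locus given for USP38 is its own, and that of USP40 is shared with the noncoding RP11-289A15.1.

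The title of the study places CNBP's G-rich binding elements close to translation start sites, so the opening of the coding sequence is shown for both called genes and for USP35, the closest relative of USP38. These are the bases from the start codon on, on the coding strand, of the longest coding transcript in GENCODE 29 (GRCh38). Capitals mark TGGAG, a G-rich motif reported for CNBP.
USP38: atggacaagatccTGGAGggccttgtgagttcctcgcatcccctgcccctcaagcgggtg
USP35: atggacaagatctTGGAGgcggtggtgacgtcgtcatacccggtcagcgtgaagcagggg
USP40: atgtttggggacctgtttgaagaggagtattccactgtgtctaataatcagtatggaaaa
USP38 and USP35 carry the motif at base 14 of the coding sequence in both. USP35 was at 1.44 (OE) and 1.34 FPKM (siRNA), without a call. That level is low and its locus is pooled with that of KCTD21, so the lack of a call says little. Whether the motif goes with the change was not tested. USP40, which fell, has no TGGAG within these 60 bases. Over all 12975 coding genes averaging 1 FPKM or more, 19.8% hold TGGAG in the opening 60 coding bases, read on the coding strand alone. Among members the count was 9 of 45 USP genes (20.0%) and 4 of 31 UBE2 genes (12.9%). It was 6 of 28 USP genes with a higher value in siRNA and 3 of 17 with a lower one. A match is a run of letters and not a binding site.

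Although few members were called, most had the higher value in siRNA. This held for 30 of 48 USP genes (62.5%) and 21 of 31 UBE2 genes (67.7%), where 48.7% of all tested genes had the higher value in siRNA. Among genes averaging 10 FPKM or more it held for 23 of 35 USP genes and 20 of 28 UBE2 genes, and for 58.2% of all tested genes. The median change on the log2(FPKM + 1) scale was 0.20 for USP (quartiles -0.065 and 0.42) and 0.23 for UBE2 (quartiles -0.083 and 0.42). With a pseudocount of 5 in place of 1 the medians were 0.13 and 0.19. The median over all tested genes was -0.012, over those with a coding transcript 0.013, and over those averaging 10 FPKM or more 0.077. The 2 families had medians that differed by -0.026 (USP minus UBE2), a difference that was not tested and ran from -0.062 to -0.0043 under other settings. Summed over members, USP FPKM went from 1617 to 1841, a ratio of 1.14, and UBE2 FPKM from 1477 to 1633, a ratio of 1.11. The ratio of sums was 1.05 over all 19177 genes matched to a coding transcript, tested or not. It was 0.719 over all 63655 genes, a sum that includes genes with a mean of up to 1.14e+06 FPKM. No test was made of these medians and sums, since genes of 1 table are not replicates. In the cumulative plot both family curves lie to the right of the curve for all tested genes over their middle range and end before it on the right.

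**Figure D2:**
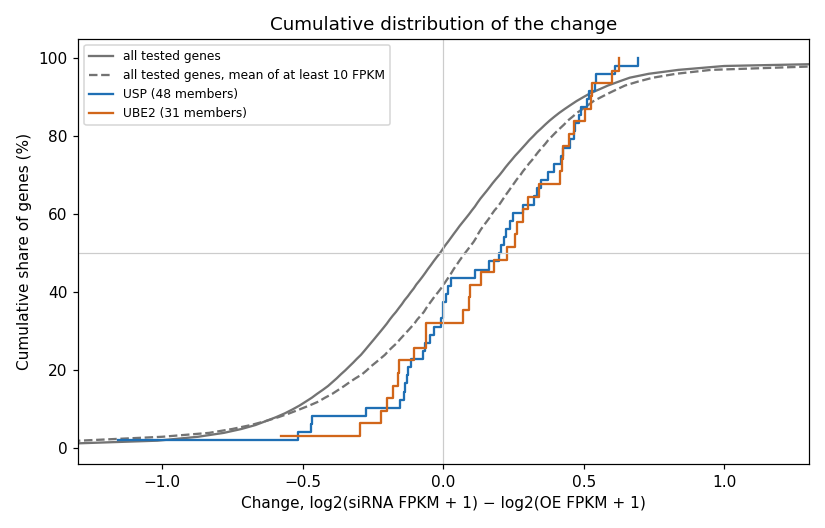
Cumulative share of genes against the change on the log2(FPKM + 1) scale, for the 48 USP genes, the 31 UBE2 genes, all tested genes (solid grey) and those averaging 10 FPKM or more (dashed grey). The family medians are 0.20 and 0.23, and no member exceeds 0.69, while all tested genes run past both ends of the axis.

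Before adjustment, the authors' deposited table gave 12 members a p-value below 0.05. These were 4 USP and 6 UBE2 genes with a higher value in siRNA, and 2 USP genes with a lower one. For UBE2 this is 19.4% of the 31 tested genes higher and none lower, and for USP 8.33% higher. Over all tested genes 4.51% were higher, 6.41% lower and 10.9% either. The share higher was 6.60% over tested genes with a coding transcript and 6.87% over those averaging 10 FPKM or more. Of these 12, 10 missed the threshold after adjustment and are not called. Beyond USP38 and USP40, the USP genes were USP12 (7.46 and 10.6 FPKM, q = 0.140 in the authors' deposited table), USP25 (16.6 and 24.7 FPKM), USP53 (13.4 and 22.3 FPKM) and USP18 (8.29 and 5.50 FPKM, q = 0.131 in the authors' deposited table). The UBE2 genes were UBE2R2 (13.7 and 18.7 FPKM), UBE2Q2 (16.8 and 25.97 FPKM), UBE2L3 (55.3 and 75.8 FPKM), UBE2G1 (21.9 and 31.9 FPKM), UBE2D1 (9.34 and 13.9 FPKM) and UBE2B (46.1 and 62.3 FPKM). All of these 10 lay between 1.35-fold and 1.66-fold apart. Among the 77 members averaging 1 FPKM or more, 5 were at least 1.5-fold higher and 3 at least 1.5-fold lower. Of all such tested genes 10.8% and 14.2% were. Of the 12975 such genes with a coding transcript, 865 were that much higher and 1167 that much lower.

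The chromatin, DNA repair and cell cycle group held 18 USP genes, none called, with a median change of 0.16 and 12 higher in siRNA. USP7, which removes ubiquitin from MDM2 and p53, was at 85.9 and 123 FPKM, a 1.43-fold higher value and the largest difference of the group (q = 0.606 in the authors' deposited table). USP48, which is nuclear, was at 75.1 and 104 FPKM, USP3, a histone H2A deubiquitinase, at 37.9 and 50.9 FPKM, and USP36, which keeps nucleolar proteins stable, at 79.96 and 102 FPKM. Further members lay on either side of no change. USP1, which acts on FANCD2 and PCNA, was at 50.4 and 47.97 FPKM. USP28, known for stabilising MYC, was at 35.0 and 35.3 FPKM, and USP21 was at 22.2 and 22.1 FPKM. USP11, linked to BRCA2 and homologous recombination, was at 134 and 122 FPKM. USP16, another H2A deubiquitinase, was at 26.2 and 30.4 FPKM, and USP37, which acts on cyclin A, at 24.7 and 31.4 FPKM. The remaining members, USP22 aside, were USP27X, USP42, USP44, USP45, USP47, USP49 and USP51, with changes between -0.13 and 0.37.

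Of the 3 USP genes that serve the proteasome or recycle free chains, none was called. USP14, which trims chains at the proteasome, was at 37.8 and 52.5 FPKM. USP5, which takes apart unanchored chains, was at 30.2 and 27.8 FPKM, and its relative USP13 was at 12.7 and 11.3 FPKM.

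The membrane, organelle and signalling group held 16 tested USP genes, none called, with a median change of 0.26 and 11 higher in siRNA. USP46 and USP12, which both work with the WD repeat protein WDR48, were at 13.9 and 20.7 FPKM and at 7.46 and 10.6 FPKM. USP25 was at 16.6 and 24.7 FPKM, USP15, which acts in TGF-beta signalling, at 38.2 and 55.2 FPKM, and USP34, which acts on axin in WNT signalling, at 50.3 and 71.0 FPKM. USP10, a partner of the stress granule protein G3BP1, was at 66.5 and 93.5 FPKM, and USP8, which acts on endosomes, at 41.7 and 55.0 FPKM. Each of these 7 genes had a value between 1.32-fold and 1.49-fold higher in siRNA. The lower values came from USP20 (8.41 and 5.79 FPKM), its relative USP33 (123 and 101 FPKM) and USP19 (16.5 and 11.7 FPKM), an enzyme with a form anchored in the endoplasmic reticulum membrane. USP9X was at 100.1 and 115 FPKM and USP30, which opposes mitophagy at the mitochondrial outer membrane, at 14.7 and 14.3 FPKM. USP2, USP4, USP6 and USP32 had changes between -0.049 and 0.28.

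Of the 5 USP genes with an ISG15, splicing or inactive role, none was called. USP18, the protease that removes ISG15, was at 8.29 and 5.50 FPKM, a 1.51-fold lower value. ISG15 itself fell from 30.7 to 17.1 FPKM (q = 0.0177 in the authors' deposited table), and UBE2L6, the conjugating enzyme for ISG15, was at 4.75 and 4.08 FPKM without a call. USP18 shares 23.4% of its 50-base windows with another gene, chiefly USP41, so its reads could be divided. USP53, which lacks protease residues in its USP domain in most descriptions, was at 13.4 and 22.3 FPKM, the largest higher value of the family at 1.66-fold (q = 0.397 in the authors' deposited table). Its relative USP54 was at 34.4 and 34.1 FPKM. USP39, a splicing factor without protease activity, was at 84.4 and 86.0 FPKM. USP50 was at 1.71 and 2.63 FPKM and has its locus pooled with that of USP8. The 6 tested genes with no role list, USP24, USP31, USP35, USP38, USP40 and USP43, include both called genes. Of these, USP24 was at 42.7 and 50.9 FPKM, USP31 at 12.1 and 14.2 FPKM and USP43 at 2.51 and 2.21 FPKM.

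Among the UBE2 genes, the 10 of the group named for broad chain initiation had a median change of 0.27, with 7 higher in siRNA and none called. The name is loose, since members such as UBE2L3 and UBE2W have narrower roles. UBE2D3 was at 89.4 and 127 FPKM, UBE2D2 at 59.0 and 81.8 FPKM and UBE2D1 at 9.34 and 13.9 FPKM, differences of 1.39-fold to 1.49-fold. UBE2L3, which serves HECT and RBR ligases such as parkin, was at 55.3 and 75.8 FPKM. UBE2W, which attaches ubiquitin to protein N-termini, was at 10.99 and 17.5 FPKM, a 1.59-fold higher value (q = 0.605 in the authors' deposited table). The E subgroup was nearly level: UBE2E1 was at 85.2 and 81.6 FPKM, UBE2E2 at 14.8 and 15.9 FPKM and UBE2E3 at 41.8 and 37.4 FPKM. UBE2H was at 20.3 and 21.8 FPKM. UBE2D4 went the other way from its relatives, at 11.1 and 7.10 FPKM, a 1.56-fold lower value (q = 0.8999 in the authors' deposited table).

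The 10 UBE2 genes that build or extend chains had a median change of 0.29, with 7 higher in siRNA and none called. UBE2N, which makes the chains used in DNA repair and NF-kB signalling, was at 65.0 and 80.2 FPKM. Its inactive partners had similar changes, UBE2V1 at 55.5 and 67.8 FPKM and UBE2V2 at 44.5 and 52.4 FPKM. These 3 genes lay between 1.18-fold and 1.23-fold higher. UBE2K, a maker of proteasome-targeting chains, was at 43.0 and 57.6 FPKM. UBE2R2, a partner of cullin ligases, was at 13.7 and 18.7 FPKM, and UBE2Q2 at 16.8 and 25.97 FPKM. UBE2S, UBE2O (42.2 and 36.6 FPKM), a hybrid of conjugating enzyme and ligase, and UBE2Q1 (67.2 and 62.4 FPKM) were lower in siRNA by at most 1.23-fold.

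All 3 enzymes of endoplasmic reticulum degradation had a higher value in siRNA, none called. UBE2G2 was at 99.6 and 126 FPKM, and the membrane-anchored UBE2J1 and UBE2J2 were at 8.15 and 9.97 FPKM and at 50.6 and 57.5 FPKM. In the DNA damage group UBE2B was at 46.1 and 62.3 FPKM while its relative UBE2A was at 39.9 and 38.2 FPKM; both are human forms of yeast RAD6. UBE2T, the conjugating enzyme of the Fanconi anaemia pathway, was at 79.2 and 70.7 FPKM. The branches for other modifiers held values on both sides of no change. UBE2M and UBE2F, the enzymes for NEDD8, were at 72.0 and 61.7 FPKM and at 14.1 and 15.6 FPKM. UBE2Z, which takes ubiquitin from UBA6, was at 47.8 and 50.2 FPKM. None of these was called.

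Close relatives were compared within each family. Of 20 groups of related members with at least 2 tested genes, 11 held genes on both sides of no change. The groups were drawn up after the values were seen. The widest group was UBE2D, whose 4 genes share 77.1% to 86.6% of their coding bases. Their openings are shown because the genes are so alike in sequence and UBE2D4 alone had the lower value in siRNA.
UBE2D1: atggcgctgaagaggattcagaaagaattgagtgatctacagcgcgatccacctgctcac
UBE2D2: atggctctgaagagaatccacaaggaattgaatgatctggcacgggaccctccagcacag
UBE2D3: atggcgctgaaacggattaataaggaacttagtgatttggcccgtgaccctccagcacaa
UBE2D4: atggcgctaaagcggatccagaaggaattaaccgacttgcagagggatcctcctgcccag
None of the 4 openings holds TGGAG. UBE2D4 changed by -0.58 and its relatives by 0.46 to 0.53 on the log2(FPKM + 1) scale, and the difference between them was not tested. UBE2D4's locus in the table is pooled with those of SPDYE1 and POLR2J4, so its value is uncertain.

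UBE2A and UBE2B share 80.5% of aligned coding bases, and their changes were -0.063 and 0.43. Neither was called, and the difference between them was not tested.
UBE2A: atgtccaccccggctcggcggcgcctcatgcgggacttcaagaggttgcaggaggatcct
UBE2B: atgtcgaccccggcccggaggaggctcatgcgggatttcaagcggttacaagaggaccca
Both openings are rich in G and C, at 65.0% and 61.7% of the 60 bases, and neither holds TGGAG. Other relatives on different sides were USP38 and USP35, UBE2Q2 and UBE2Q1 (0.60 and -0.10), UBE2L3 and UBE2L6 (0.45 and -0.18), and USP53 and USP54 (0.69 and -0.0092). USP15 (0.52) stood apart from both of its relatives, USP4 (-0.049) and USP11 (-0.14). In contrast USP12 and USP46, which share 77.1% of aligned coding bases, changed by 0.45 and 0.54, and UBE2V1 and UBE2V2 by 0.28 and 0.23. USP20 and USP33 both had the lower value in siRNA, with changes of -0.47 and -0.28.

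**Figure D3:**
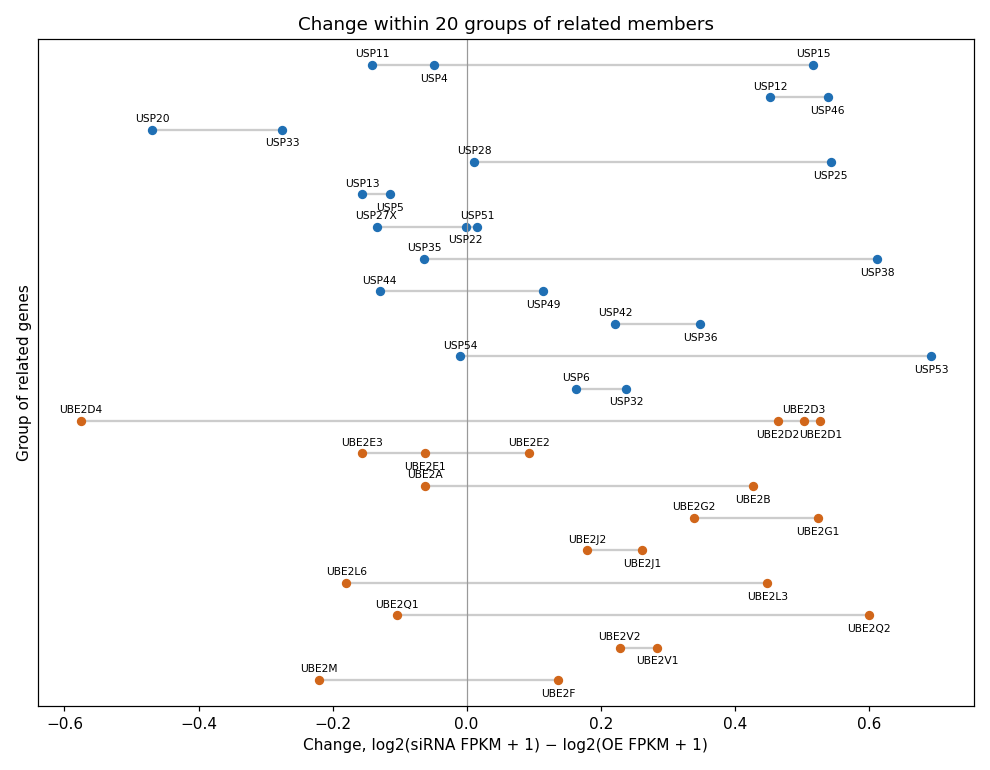
Change on the log2(FPKM + 1) scale within 20 groups of related members, USP in blue and UBE2 in orange, with a line joining the members of a group. UBE2D4 at -0.58 lies far from UBE2D1, UBE2D2 and UBE2D3, while USP12 and USP46 lie close together at 0.45 and 0.54.

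The change moved with the base content of the transcripts, as it did over the coding genes averaging 1 FPKM or more. A coding transcript was matched by gene ID for 78 of the 79 tested members, and the ID given for USP27X found no match. The GC content of the longest one had a median of 45.3% over 45 USP genes and 43.7% over 31 UBE2 genes averaging 1 FPKM or more, against 48.6% over all 12975 such coding genes. Spearman's rho between GC content and change was -0.547 over the USP genes, -0.598 over the UBE2 genes and -0.443 over all coding genes. These describe genes of the same 2 conditions, which share libraries, and carry no p. The rho with GC content of the coding part was -0.483 for USP and -0.678 for UBE2, and with that of the 3′ UTR -0.441 and -0.408. With the 5′ UTR it was 0.225 and -0.078. Longer 3′ UTRs went with higher changes, with a rho of 0.351 for USP and 0.481 for UBE2, against 0.181 over all coding genes.

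Divided into 5 equal bins by the GC content of all coding genes, the members with the lowest GC content had the highest changes. In the lowest bin, up to 41.0% GC, 13 of 16 USP genes and 8 of 8 UBE2 genes had the higher value in siRNA, as did 77.8% of all coding genes there. Their median changes were 0.42 and 0.46, against 0.24 for all coding genes of that bin. In the next bin 10 of 11 USP genes were higher, with a median of 0.25 against 0.15 for all coding genes. The UBE2 genes of that bin were below all coding genes, with 5 of 8 higher and a median of 0.11, where 67.3% of all coding genes were higher. In the third bin 3 of 8 USP genes (median -0.022) and 5 of 8 UBE2 genes (median 0.22) were higher, against 54.6% and a median of 0.037 for all coding genes. In the fourth bin 2 of 7 USP genes (median -0.0018) and 2 of 4 UBE2 genes (median -0.055) were higher, against 39.6% and a median of -0.079. The families were therefore not above the background in every bin. In the highest bin, above 58.5% GC, none of 3 USP genes and 1 of 3 UBE2 genes was higher, where 26.3% of all coding genes were. Single members departed from this course. USP33, at 39.8% GC, changed by -0.28, and USP44, at 38.0% GC, by -0.13, while USP36, at 56.5% GC, changed by 0.35. USP40 changed by -1.16 at 48.7% GC, in a bin where the median of all coding genes was 0.037. Among related genes, the one with the lower GC content had the higher change in 24 of 29 pairs with values for both. The pairs share members, and the part of base content in the family medians was not tested.

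**Figure D4:**
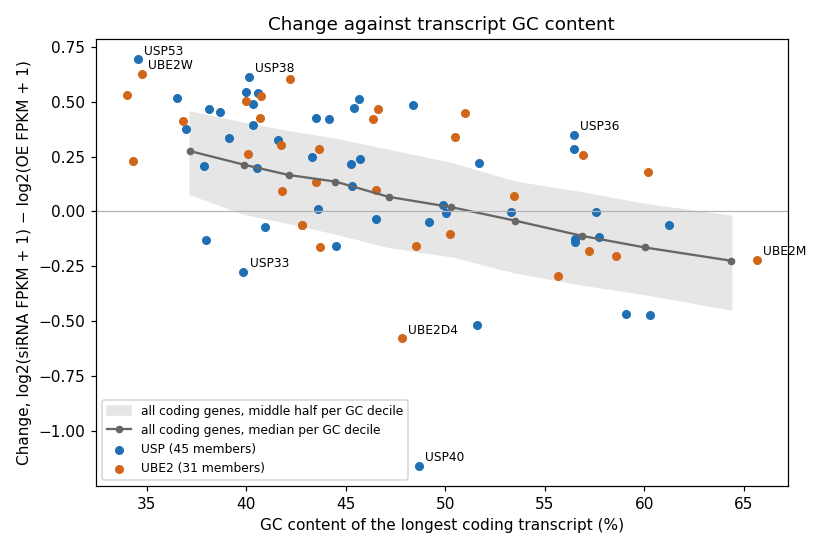
Change on the log2(FPKM + 1) scale against the GC content of the longest coding transcript, for 45 USP and 31 UBE2 genes averaging 1 FPKM or more, over the median (line) and quartiles (grey band) of all coding genes in 10 equal bins of GC content. Both families slope downwards with GC content, with a rho of -0.547 and -0.598. Members lie on both sides of the band, USP40, UBE2D4 and USP33 among those below it and USP36 among those above it.

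Of 8 lists of other pathway genes, 1 held called genes, and list medians ran from -0.28 to 0.35. Over the 8 lists, 97 genes were tested, of which 2 rose and none fell, where 1.35% of all tested genes were called, so the count is close to the background. The higher value was in siRNA for 68 of the 97 (70.1%, against 48.7% of all tested genes and 58.2% of those averaging 10 FPKM or more), and their median change was 0.23. Both called genes belong to the 27 deubiquitinases of the OTU, UCH, Josephin and JAMM classes, whose median change was 0.35. OTUD6B rose from 6.03 to 10.4 FPKM, 1.73-fold (q = 0.0418 in the authors' deposited table). OTUD1 rose from 9.07 to 14.3 FPKM, 1.58-fold (q = 0.0464 in the authors' deposited table). All 7 SENP proteases, which remove SUMO or NEDD8, had a higher value in siRNA, and none was called, with SENP6 at 51.9 and 59.4 FPKM and SENP3 at 36.1 and 43.3 FPKM. Of 9 partner proteins of USP enzymes 8 had the higher value and none was called, with G3BP1 at 125 and 162 FPKM and DDB1 at 154 and 131 FPKM.

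No gene was called among the activating enzymes or the ligases. The 8 activating enzymes had a median change of -0.014, with UBA2, of the SUMO branch, at 621 and 642 FPKM and its partner SAE1 at 138 and 97.8 FPKM. The 6 tested conjugating enzymes whose symbols lie outside the pattern had a median of -0.28, with BIRC6 at 67.0 and 95.7 FPKM and CDC34 at 55.3 and 49.4 FPKM. The 23 HECT and RBR ligases had a median of 0.16, with HUWE1 at 146 and 138 FPKM and ARIH1 at 107 and 154 FPKM. The 14 cullin-RING core genes had a median of 0.21, with TCEB2 at 209 and 235 FPKM and SKP1 at 182 and 207 FPKM. Over all 8 lists, the authors' deposited table gave 13 genes an unadjusted p-value under 0.05 with a higher value (13.4% of the 97). Another 4 had such a p-value with a lower value. Over all tested genes 4.51% were higher and 6.41% lower. The share higher was 6.60% over tested genes with a coding transcript and 6.87% over those averaging 10 FPKM or more.

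**Figure D5:**
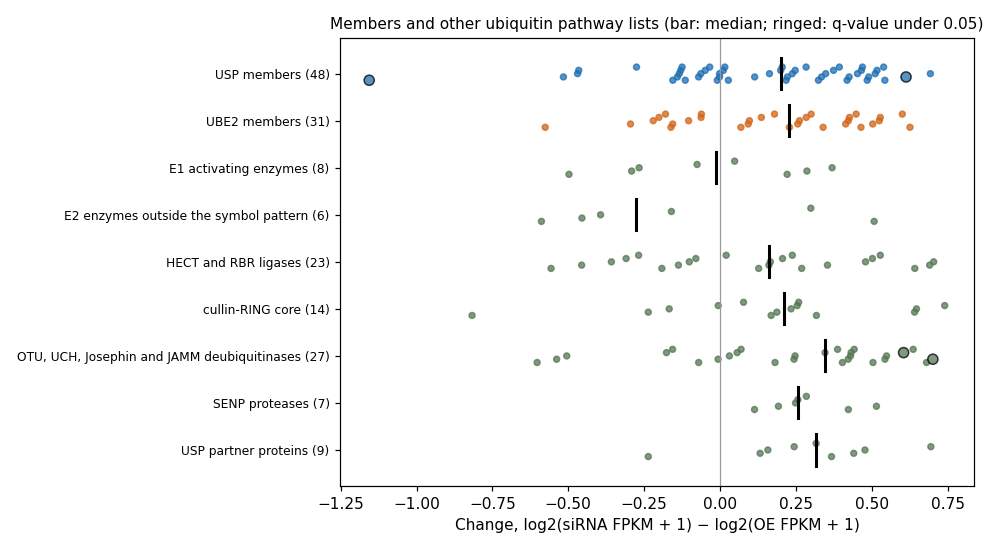
Change on the log2(FPKM + 1) scale of each tested gene of the USP and UBE2 families and of 7 of the 8 pathway lists, with a black bar at the median and a ring around genes with a q-value under 0.05. The ringed genes are USP40 and USP38 among the USP genes and OTUD1 and OTUD6B among the other deubiquitinases.

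Where reads are divided between genes, a value is less certain. This touches 25 of the 79 tested members: 10 share more than 10% of the 50-base windows of their coding transcript with another annotated gene, and 19 have a locus that the table pools with another tested coding gene. UBE2V1 shares 81.2% of its windows, chiefly with the TMEM189-UBE2V1 readthrough gene, USP32 28.2%, USP31 25.5%, UBE2F 25.5% and UBE2S 17.5%. Pooled loci include those of UBE2W (with STAU2), USP15 (with FAM19A2), USP20 (with C9orf78) and USP35 (with KCTD21). The same holds for USP39 (with C2orf68 and TMEM150A), USP14 (with THOC1), USP54 (with PPP3CB), USP45 (with TSTD3) and UBE2Z (with ATP5G1). Without these members the median change was 0.20 for USP and 0.26 for UBE2.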

How the data were processed

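The authors deposited 1 Cuffdiff table with an FPKM per gene for each of 2 conditions, and a p-value and q-value for their 1 comparison. TopHat, Cufflinks, Cuffdiff and hg19 are named in the submitters' processing notes; for versions, settings, strand handling and annotation the entry is: not given in the sources used here. Libraries were directional, per the labels' protocols. The FPKM unit and headings are per the file headers, which give no value per sample.

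Calls needed the tested status and a deposited q-value under 0.05. The change is log2(siRNA FPKM + 1) minus log2(OE FPKM + 1), which understates low genes, and folds are ratios of the FPKM values. Medians and counts describe members and are not tests. The median calculation was checked on simulated data with known shifts, in larger sets of genes and with almost no pseudocount. That check does not cover the family medians as reported, and the counts were not checked in this way. Locus starts count from 0 and are printed after adding 1. A few genes that fit the pattern or the lists are not reported here by name, and 2 copies on patch sequences were left out.

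GC content, opening coding bases, alignments of coding sequence and shared 50-base windows come from GENCODE 29 (GRCh38), joined by gene ID. Each gene has 1 transcript, the longest coding one, which may not be the isoform in these cells. Protein sequences were not used here. 

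The members and lists were chosen with earlier results of these data known. Members that were called, had a p-value under 0.05, or had 1 of the 8 largest changes in either direction per family are named with values. So are the members with 1 of the 5 highest levels per family. USP27X is the exception, given within a range of changes. Other members are named by role, most with FPKM values and some within such a range. From each pathway list the called genes are named, or else the 2 with the highest mean FPKM. Groups of related genes were drawn up after seeing values. Scripts ran in Python 3.11.15 with Biopython 1.88, pandas 2.3.3, numpy 2.4.6 and matplotlib 3.10.9.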

Additional observations from a re-analysis of the deposited data

How the results depend on the processing

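The family medians stayed within 0.1 of 0.20 (USP) and 0.23 (UBE2) under other pseudocounts, filters on level, scaling by the median ratio of 1.00, and without members whose reads may be divided, an alternative chosen after seeing the data. The lowest USP median was 0.13, with a pseudocount of 5, which is over 1.5 times smaller; UBE2 was then at 0.19. The difference of the medians ran from -0.062 to -0.0043. Within 5 bins of GC content, also chosen afterwards, the USP median ran from 0.42 in the lowest through 0.25, -0.022 and -0.0018 to -0.47 in the highest, and the UBE2 median from 0.46 through 0.11 and 0.22 to -0.055 and -0.20. The part of base content was not tested. At a q-value under 0.01, 0 USP genes, 0 pathway genes and 157 genes in all were called. With a mean of at least 10 FPKM, 1 USP gene (USP38, USP40 having a mean of 9.997), 1 pathway gene and 149 genes in all were called, since fewer genes enter. At a q-value under 0.1, 575 genes in all were called. UBE2 genes were called under none of these; 6 had an unadjusted p-value under 0.05. With a pseudocount of 0.1, 5 members moved by more than 0.1 and none changed sign. No paired analysis was possible because samples have no values of their own in the table; leaving out a replicate was not run for that reason. Depth per sample is unknown.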
